A study of Mus musculus with 2 samples.

Results

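The genes described here are the nuclear subunits of the mitochondrial respiratory chain, the proteins of complexes I to V that are encoded in the nucleus and imported into mitochondria. They were chosen by symbol from the deposited gene list: names starting Nduf followed by a, b, c, s or v and a digit, Ndufab1, names starting Uqcr, Sdha to Sdhd, names starting Cox4 to Cox8, and names starting Atp5, with names holding "-ps" set aside. The rule gave 92 of 56954 features (91 symbols, since Atp5o has 2 gene identifiers), of which 43 were named for complex I, 4 for complex II, 8 for complex III, 19 for complex IV and 18 for complex V. The annotation lists 87 of them as protein-coding, 4 (Cox6c2, Ndufa11b, Ndufb4c and Ndufs6b) as processed pseudogenes, and the identifier of Ndufb1 as a noncoding RNA from a bidirectional promoter. All were kept, as the rule names them. In all, 87 members had at least 20 UMIs (unique molecular identifiers, the tags by which captured transcripts are counted) and 5 had fewer, of which 4 had none. The members held 1384314 of 69993559 UMIs, or 1.98%. Their level was followed across the cell lineages of the heart and across states within fibroblasts and macrophages, with the 13 protein genes of the mitochondrial genome as a second readout.

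The data came from 1 pool of mouse heart cells other than cardiomyocytes, collected 7 days after TAC (transverse aortic constriction, an operation that narrows the aortic arch and puts the left ventricle under pressure). Per the labels the pool held cells of 3 control and 4 Nts knockout mice, all of which had TAC, while the genotype label of the same pool reads 6-8 weeks old WT. Hearts were digested with enzymes, live cells of each mouse carried a hashtag antibody, and the sorted pool was loaded on a droplet kit that reads the 3′ ends of transcripts, with a target of 10000 cells. Cells could not be assigned to their mice from the files used here, so control and knockout mice were not compared, and the labels do not say in which cells Nts was deleted.

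The respiratory chain passes electrons from NADH (through complex I) and from succinate (through complex II) to ubiquinone, on to cytochrome c through complex III, and to oxygen through complex IV. Complexes I, III and IV pump protons, and complex V, the ATP synthase, uses the proton gradient to make ATP. Each complex other than II joins nuclear subunits to a core encoded by mitochondrial DNA, and several subunits of complex IV exist as a widely expressed form and a form known from heart and skeletal muscle, lung or testis. Many of these genes are known targets of NRF-1, of ETS factors of the GABP family and of YY1, and are often regulated as a group.

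Promoter sequence is shown for this reason, with the NRF-1 motif as an example shared by members of different complexes. RefSeq promoter windows (GRCm38.p6, 250 bases before to 50 after the start of each gene) were matched for 70 of the 91 symbols, and each window was searched on both strands. Cox4i1, Cox4i2, Cox6a2, Ndufa4l2 and Uqcrq were among the symbols with no entry. The NRF-1 letters GCGCANGCG stood in 20 of 70 (28.6%), against 7.03% of 27025 promoters and 16.6% of those of 6010 genes with at least 1000 UMIs in this library. The ETS letters CCGGAAG stood in 17 of 70 (24.3%, against 9.93% of all promoters and 21.7% of those of the abundant genes), and the YY1 letters AAGATGGCG in 7 of 70 (10.0%, against 1.64% and 4.03%). At least 1 of the 3 motifs stood in 36 of 70 (51.4%, against 16.5% and 36.6%). The motifs can overlap, and a match describes the letters and is no evidence of binding. For complexes I, II, IV and V, the member with most UMIs among those holding the NRF-1 letters in full upstream context is printed 5′ to 3′ on the strand of its gene, with the motif in capitals; no member of complex III met that condition. The windows are chr17:56717672-56717740 on the plus strand for Ndufa11 (an accessory subunit of complex I), chr9:50603890-50603958 on the minus strand for Sdhd (a membrane anchor of succinate dehydrogenase), chr5:115349082-115349150 on the minus strand for Cox6a1 (a nuclear subunit of cytochrome c oxidase) and chr11:115420022-115420090 on the minus strand for Atp5h (a subunit of the peripheral stalk of ATP synthase).
Ndufa11: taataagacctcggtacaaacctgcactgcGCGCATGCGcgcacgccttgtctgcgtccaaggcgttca
Sdhd: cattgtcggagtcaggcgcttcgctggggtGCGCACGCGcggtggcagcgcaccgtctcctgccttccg
Cox6a1: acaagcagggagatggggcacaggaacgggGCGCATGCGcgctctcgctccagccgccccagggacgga
Atp5h: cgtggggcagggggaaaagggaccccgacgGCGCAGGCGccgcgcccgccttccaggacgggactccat

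The deposited matrix held 9369 distinct cell barcodes with 2567 to 42567 UMIs each (median 6663). A doublet caller marked 357 barcodes (3.81%), which were left out. A cell was gated into a lineage on its raw UMIs when at least 3 markers of that lineage were detected. Where several lineages passed, it took the one with the largest share of its list detected. It counted as mixed (557 cells) where a lineage of another family had at least 3 markers and 50% of its list. The endothelial classes, the mural classes, the phagocytes, and T with NK cells each formed a family. Cells that passed a further gate short of this were kept. A further 104 cells passed none. The 15 lineages with at least 20 cells held 8340 cells (92.5%), and class names below stand for these marker gates. The 10 leading genes of each class held more markers of its own list than of any other, an outcome that gating on these lists favours. Some classes were less clear: 196 cells sat at exactly 3 markers, and 93 of 387 blood endothelial cells had a UMI of the endocardial marker Npr3. Rgs5, a pericyte marker, was among the leading genes of the smooth muscle class. The immunoglobulin genes Ighg2b, Igkc and Igha, with Jchain, were among those of the B class, whose deepest cell had 26417 UMIs against a median of 3414. Camp and Ngp, leading genes of the neutrophil class, were also among those of non-classical monocytes. The label of the pool excludes cardiomyocytes, and 3 cells passed the cardiomyocyte gate. Levels are CPM, the UMIs of a gene or a group summed over the cells of a class and scaled to a class total of 1000000, with exact 95% Poisson intervals. A ratio of 2 classes has an exact 95% binomial interval, and a subunit is called higher or lower where its ratio is at least 1.5 in either direction, the interval excludes 1 and the gene has at least 20 UMIs over both classes. There was 1 library, cells are not replicates, and UMIs in a few cells are not independent mice, so the intervals cover counting error only and no p-value is given. A CPM is a share of a class's RNA, so a lower level and a larger amount of other RNA cannot be told apart.

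The nuclear subunits were highest in the mural cells of blood vessels. Their summed level was 41814 CPM (interval 40612 to 43042) in 22 smooth muscle cells and 33718 CPM (32862 to 34591) in 36 pericytes, the contractile cells that wrap arteries and capillaries. Natural killer (NK) cells followed at 25537 CPM (24972 to 26113, 80 cells), then classical monocytes at 23752 CPM, endocardial cells at 23230 CPM and blood endothelial cells at 23131 CPM. The intervals of classical monocytes and endocardial cells overlapped, as did those of endocardial and blood endothelial cells. T cells (22673 CPM), lymphatic endothelial cells (22557 CPM), conventional dendritic cells (22177 CPM) and mesothelial or epicardial cells (21597 CPM) formed a run in which each class overlapped the next. The lower end held non-classical monocytes at 20070 CPM, fibroblasts at 19476 CPM (19433 to 19520, 4877 cells), macrophages at 18393 CPM (18313 to 18473, 1805 cells), neutrophils at 17404 CPM (16643 to 18190, 23 cells) and B cells at 15971 CPM (15682 to 16264, 153 cells). The 3 cells of the cardiomyocyte gate, a type whose need for ATP is high, stood at 181668 CPM, far above every gated lineage.

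The mitochondrially encoded subunits gave another order. Smooth muscle was again highest, at 12910 CPM, but macrophages, among the lowest for the nuclear genes, came next at 9174 CPM, followed by blood endothelial cells at 8709 CPM. Pericytes, second for nuclear subunits, were at 5536 CPM, close to fibroblasts at 5369 CPM and B cells at 5365 CPM. Classical monocytes were lowest at 3375 CPM, below conventional dendritic cells at 3853 CPM and non-classical monocytes at 3941 CPM. The mitochondrial sum was 0.499 of the nuclear sum in macrophages, 0.377 in blood endothelial cells, 0.336 in B cells, 0.276 in fibroblasts, 0.164 in pericytes and 0.142 in classical monocytes. Across the 15 lineages the sums had a Pearson r of 0.569 and a Spearman rho of 0.225, and across the 13 lineages without the mural classes r was -0.128 and rho -0.0934. The points share 1 library and differ in depth, so these values only describe the plot of the levels.

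**Figure D1:**
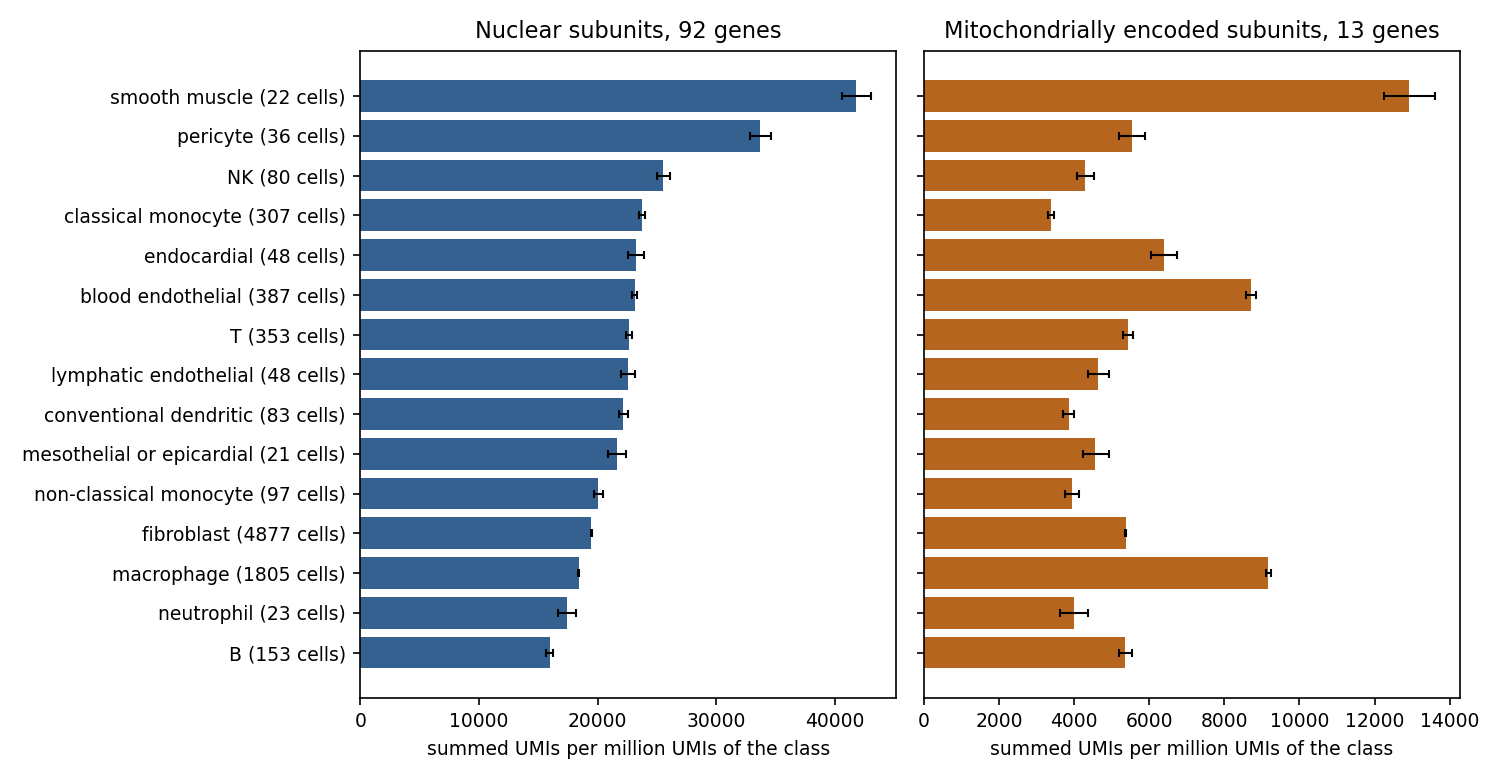
Summed UMIs of the 92 nuclear subunits (left) and the 13 mitochondrially encoded subunits (right), as CPM of each lineage (x axis); bars start at 0, whiskers are 95% Poisson intervals and the number of cells stands beside each name. Smooth muscle leads both panels, at 41814 and 12910 CPM, while pericytes are next in the left panel and macrophages next in the right one.

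The mitochondrial readout is uneven between its genes. mt-Cytb, the subunit of complex III that mitochondrial DNA encodes, held 45.9% of the UMIs of the 13 genes, and together with mt-Nd1 and mt-Nd4, both complex I subunits, it held 79%. By contrast mt-Co2 had 2 UMIs, mt-Nd3 97 and mt-Co3 198. For 6 of the genes, these among them, at least 98.8% of the 50-base stretches in the last 300 bases of the transcript also occur in another annotated transcript, and these 6 genes held 6.99% of the UMIs of the 13; the part of such sharing in their counts was not tested. mt-Cytb, mt-Nd1 and mt-Nd4 share no such stretch, so their single ratios are given beside the sums below. Among the nuclear members, 50 of 87 with a protein-coding transcript shared no 50-base stretch and 9 shared at least 50%. Cox5a, Cox7c, Atp5l, Atp5h and Ndufs3 were among these 9, whose levels are uncertain where counting could split reads. Ndufa4, Ndufa4l2, Cox4i2 and Cox6b2 shared none.

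The mural classes held the highest level for most members, while the lowest lineage varied. Of the 79 members with at least 1000 UMIs, 50 were highest in smooth muscle and 12 in pericytes, 5 in endocardial cells and 3 each in NK cells and classical monocytes. With 22 and 36 cells the mural classes are among the smallest, where counting error is large. The share of all genes highest in each class was not counted. The median gene with at least 1000 UMIs had a log2 ratio to the other gated cells of -0.235 in smooth muscle and 0.128 in pericytes. B cells were lowest for 30 of them and neutrophils for 18. Against the other gated cells, the median gene with at least 1000 UMIs was itself lower in both. Its log2 ratio was -0.444 in B cells and -0.572 in neutrophils, and the share of all genes lowest in each class was not counted. Among the 77 of these members with a UMI in every lineage the highest level was a median of 3.09 times the lowest, and at least 1.67 times. The other 2, Ndufa4l2 and Cox4i2, had no UMI in 5 and 4 lineages and were highest in pericytes, at 3014 CPM and 1948 CPM. Against the level of 3 UMIs, Ndufa4l2 was at least 468-fold higher there than in non-classical monocytes. Cox4i2 was at least 445-fold higher than in conventional dendritic cells. The member with most UMIs in each complex shows the spread. Ndufa4, named for complex I and now known as a subunit of complex IV, ranged from 68.8 CPM in pericytes over a lineage median of 496 CPM to 835 CPM in endocardial cells. Sdhb, the iron-sulfur subunit of complex II, ranged from 125 CPM in non-classical monocytes over a median of 168 CPM to 332 CPM in pericytes. Uqcrh, the hinge protein of complex III, ranged from 639 CPM in macrophages over a median of 811 CPM to 1254 CPM in T cells. Cox4i1, the common form of complex IV subunit 4, ranged from 759 CPM in B cells over a median of 1135 CPM to 1446 CPM in classical monocytes, and Atp5e, the epsilon subunit of ATP synthase, ranged from 734 CPM in pericytes over a median of 980.0 CPM to 1630 CPM in NK cells. Pericytes were thus at opposite ends for members of different complexes.

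By complex, the mural classes stood above the other gated cells for all 5, but not evenly. The log2 ratio to all other gated cells in smooth muscle was 1.07 for complex I, 0.84 for II, 1.05 for III, 1.24 for IV and 0.99 for V, and in pericytes 0.87, 0.92, 0.73, 0.86 and 0.56. Without Ndufa4 and Ndufa4l2 complex I was at 0.95 in smooth muscle and 0.61 in pericytes, and without Cox4i2 complex IV was at 1.1 and 0.5. Complex I subunits made up 38.4% of the nuclear subunit UMIs in pericytes (37.1 to 39.6), an interval that includes the 37.5% of fibroblasts. The share was 37.4% in mesothelial or epicardial cells, 36.2% in endocardial cells, 35.5% in smooth muscle, 32.9% in macrophages and 30.1% in NK cells. The pericyte value holds Ndufa4l2, which the symbol rule places in complex I. With Ndufa4 and Ndufa4l2 left out of both sums, the share was 35.3% (35.1 to 35.4) in fibroblasts and 32.2% (30.9 to 33.4) in pericytes. Between them lay mesothelial or epicardial (34.9%), endocardial (33.8%), blood endothelial (32.9%) and lymphatic endothelial cells (32.8%). Smooth muscle was at 31.6%, macrophages at 31.4% and NK cells at 27.8%. Complex V made up 29.6% in NK cells against 22.6% in pericytes, and complex IV 27.1% in NK cells, 26.5% in macrophages and 23.1% in fibroblasts. These shares count transcripts by their 3′ ends and say nothing of the ratio of the proteins.

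**Figure D2:**
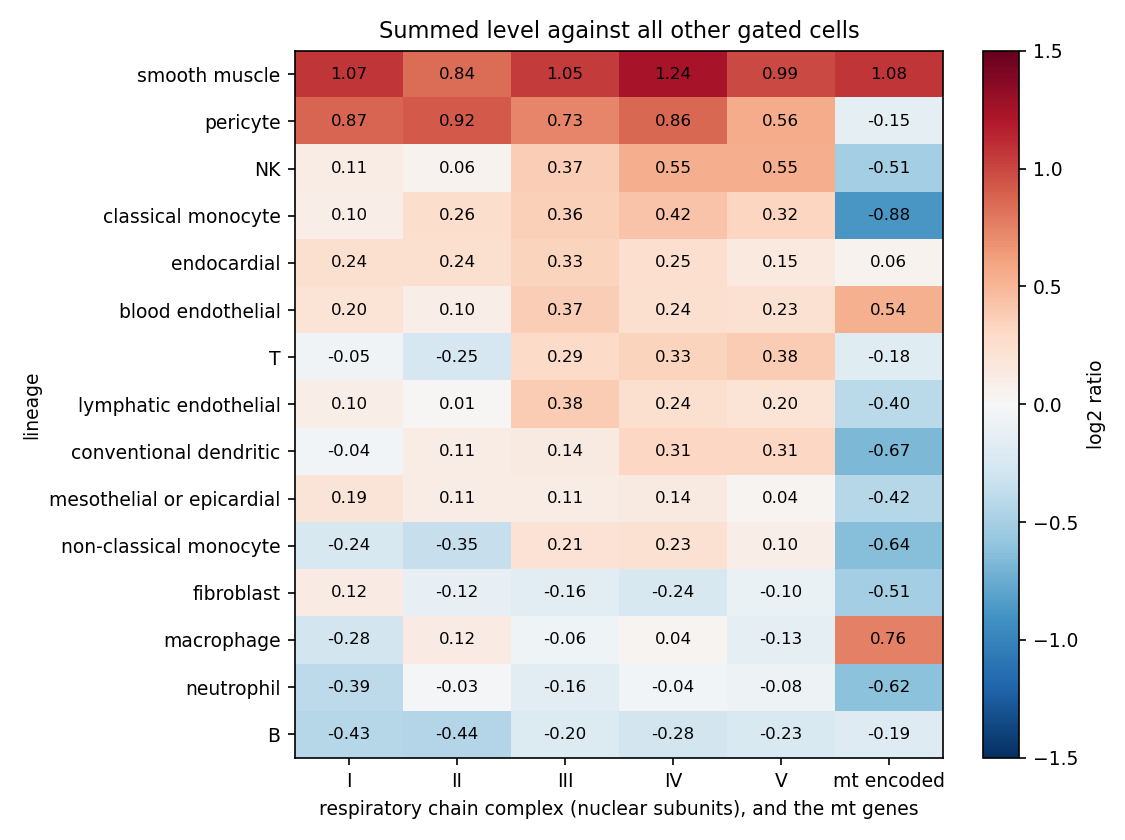
Log2 ratio of the summed level of each complex's nuclear subunits, and of the mitochondrially encoded subunits, in each lineage (rows) against all other gated cells; red is higher, blue lower, and each value is printed. Smooth muscle is red in every column (1.24 for complex IV), whereas in pericytes all 5 nuclear columns are red and the mitochondrial one is not.

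Pericytes against fibroblasts, the largest class and the other main stromal cell, showed a higher nuclear sum and, by CPM, a like mitochondrial one. The nuclear subunits were 1.73 times higher in pericytes (1.69 to 1.78), and 44 of 87 subunits were called higher and 1 lower, where 13.2% of all genes tested were called higher and 5.3% lower. Among the genes with at least 1000 UMIs, which suits a class of 36 cells better, the background was 18.6% higher and 11.9% lower, against 44 and 1 of 79 subunits. The median log2 ratio, with 1 CPM added to each side, was 0.62 over the subunits and -0.06 over all genes tested. Complex II was 1.94 times higher (4 of 4 subunits called), complex IV 1.91 times, complex I 1.77 times, complex III 1.72 times (7 of 8 called) and complex V 1.5 times. Without Ndufa4 and Ndufa4l2 complex I was 1.49 times higher (1.42 to 1.56). Without Cox4i2 complex IV was 1.5 times higher (1.41 to 1.58), and both were then level with complex V. The mitochondrially encoded sum had a ratio of 1.03 (0.967 to 1.1), with mt-Cytb at 1.06, mt-Nd1 at 1.08 and mt-Nd4 at 0.822.

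A pair of subunit forms led that comparison. Cox4i2, the form of complex IV subunit 4 known from lung and from oxygen sensing cells (chromosome 2, 152754173 to 152765037 on the plus strand of GRCm38), was at 1948 CPM in pericytes (340 UMIs) and 44.6 CPM in fibroblasts, a ratio of 43.7 (38.8 to 49.1). Ndufa4l2, a paralog of Ndufa4 known as a target of HIF-1 (chromosome 10, 127514967 to 127517154 on the plus strand), was at 3014 CPM (526 UMIs) and 210.2 CPM, a ratio of 14.3 (13.1 to 15.7). The called subunits that came next were far smaller: the acyl carrier protein Ndufab1 at 2.73 times, the flavoprotein subunit Ndufv1 at 2.61 times and the catalytic beta subunit Atp5b at 2.53 times. Ndufa4 itself was the 1 subunit called lower, at 68.8 CPM (12 UMIs) against 463 CPM, a ratio of 0.148 (0.0767 to 0.259). Without Cox4i2 and Ndufa4l2 the nuclear sum was 1.5 times higher in pericytes. With the median gene of all tested set to 1, the nuclear ratio was 1.23 and 12 subunits were called higher. This scaling raises the reference by 0.489 on the log2 scale because genes with no UMI in so few cells drop out. Over genes with at least 1000 UMIs the nuclear ratio was 1.55. The mitochondrial ratio was 0.734 with the median gene of all tested set to 1, and 0.921 over genes with at least 1000 UMIs.

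Some other metabolic lists were also higher in pericytes, where 13.2% of all genes and 18.6% of those with at least 1000 UMIs were called higher. Of the TCA cycle genes 12 of 16 were called higher and none lower (summed ratio 2.11), of the glycolysis genes 10 higher and 1 lower of 15 (1.78) and of the adenine nucleotide and uncoupling carriers 4 of 7 higher (1.86). Assembly factors were called at or under those backgrounds, 2 of 15 for complex I and 3 higher and 1 lower of 30 for complexes II to V, and mitochondrial ribosomal proteins (17 of 77 higher) were near that of the abundant genes. The dissociation response genes, immediate early genes that enzymatic digestion can induce, were lower for 8 of 11 and higher for none (13106 CPM against 26131 CPM), and cytosolic ribosomal proteins were lower for 41 of 93 and higher for 2 (32498 CPM against 56469 CPM). With nuclear genes other than ribosomal proteins as the denominator, the nuclear ratio of pericytes to fibroblasts was 1.68 and 40 subunits were called higher. The part of the dissociation response in the subunit ratios was not tested.

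Smooth muscle cells, at 22 the second smallest class, had the highest nuclear sum relative to fibroblasts, 2.15 times (2.09 to 2.21), and 63 of 87 subunits were called higher and none lower at this depth, against backgrounds of 7.53% and 5.59% of all genes. In genes with at least 1000 UMIs, 10.3% were called higher and 12.8% lower. All 8 subunits of complex III were called (2.15 times), 30 of 41 of complex I (2.03 times), 11 of 17 of complex IV (2.5 times), 12 of 17 of complex V (2.02 times) and 2 of 4 of complex II (1.85 times). Unlike in pericytes, the mitochondrially encoded subunits were higher too, 2.4 times (2.28 to 2.53), with mt-Cytb at 2.57, mt-Nd1 at 2.16 and mt-Nd4 at 2.27. Cox4i2 was at 1104 CPM (121 UMIs, ratio 24.7) and Ndufa4l2 at 1642 CPM (180 UMIs, ratio 7.81). They were followed by Cox8a, the common form of subunit 8 of complex IV, at 2746 CPM against 803 CPM (3.42 times), by Atp5b at 3.25 times and by Atp5g3, a gene of ATP synthase subunit c, at 3.13 times. TCA cycle genes were called higher for 8 of 16 (2.32 times) and carriers for 5 of 7 (2.36 times), while the summed dissociation response (28365 CPM) was near that of fibroblasts.

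Cardiomyocyte RNA was looked for beside this result, because cardiomyocytes are so rich in these transcripts. Of the 11 genes of the cardiomyocyte list, Tnnt2 (17 UMIs) and Pln (55 UMIs), a gene that smooth muscle is also known to express, were the 2 with UMIs in the smooth muscle class. Cox6a2, Cox8b and Cox7a1, the muscle forms that held 79, 39 and 38 UMIs in 3 cells of the cardiomyocyte gate, had 0 UMIs in the smooth muscle cells, as did Actc1, Myl3, Tnni3, Mb and Myl2.

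Against pericytes the smooth muscle nuclear sum was 1.24 times higher (1.19 to 1.29), with 18 of 76 subunits called higher and 3 lower (background 12.1% and 17.4%), and the mitochondrial sum 2.33 times higher (2.15 to 2.53). Ndufa4 led, at 748 CPM (82 UMIs) against 68.8 CPM, a ratio of 10.9 (5.9 to 21.9), followed by Ndufa5 (2.68), Cox7b (1.99), Atp5a1 (1.96) and Ndufb9 (1.85). Ndufs4 (0.375), Ndufa4l2 (0.545) and Cox4i2 (0.567) were lower in smooth muscle. The dissociation response was at 28365 CPM in smooth muscle and 13106 CPM in pericytes, and its part in this difference was not tested.

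The paralog shares, which do not depend on the total RNA of a class, separated the mural cells and fibroblasts from the rest. Of the UMIs of Ndufa4 and Ndufa4l2 together, Ndufa4l2 held 97.8% (96.1 to 98.8) in pericytes, 68.7% (62.7 to 74.3) in smooth muscle and 31.2% (30.7 to 31.8) in fibroblasts, and no more than 1.25% in the other 12 lineages. All 36 pericytes had an Ndufa4l2 UMI and 9 (25%) had an Ndufa4 UMI, whereas 19 of 22 smooth muscle cells had Ndufa4 and 18 had Ndufa4l2. With each cell thinned to 2500 UMIs, Ndufa4l2 was detected in 97.2% of pericytes (85.5 to 99.9), 81.8% of smooth muscle cells and 35.7% of fibroblasts, against 0.997% of macrophages. The part of free RNA in droplets in these shares was not tested. Cox4i2 held 63.1% (58.9 to 67.2) of the subunit 4 UMIs in pericytes, 43.5% (37.6 to 49.6) in smooth muscle and 4.66% (4.45 to 4.88) in fibroblasts, and no more than 1.28% in the other 12. Cox4i1 stayed abundant beside its paralog, with 199 UMIs in pericytes and 157 in smooth muscle. Ndufa4 did so in smooth muscle (82 UMIs) but not in pericytes (12 UMIs).

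**Figure D3:**
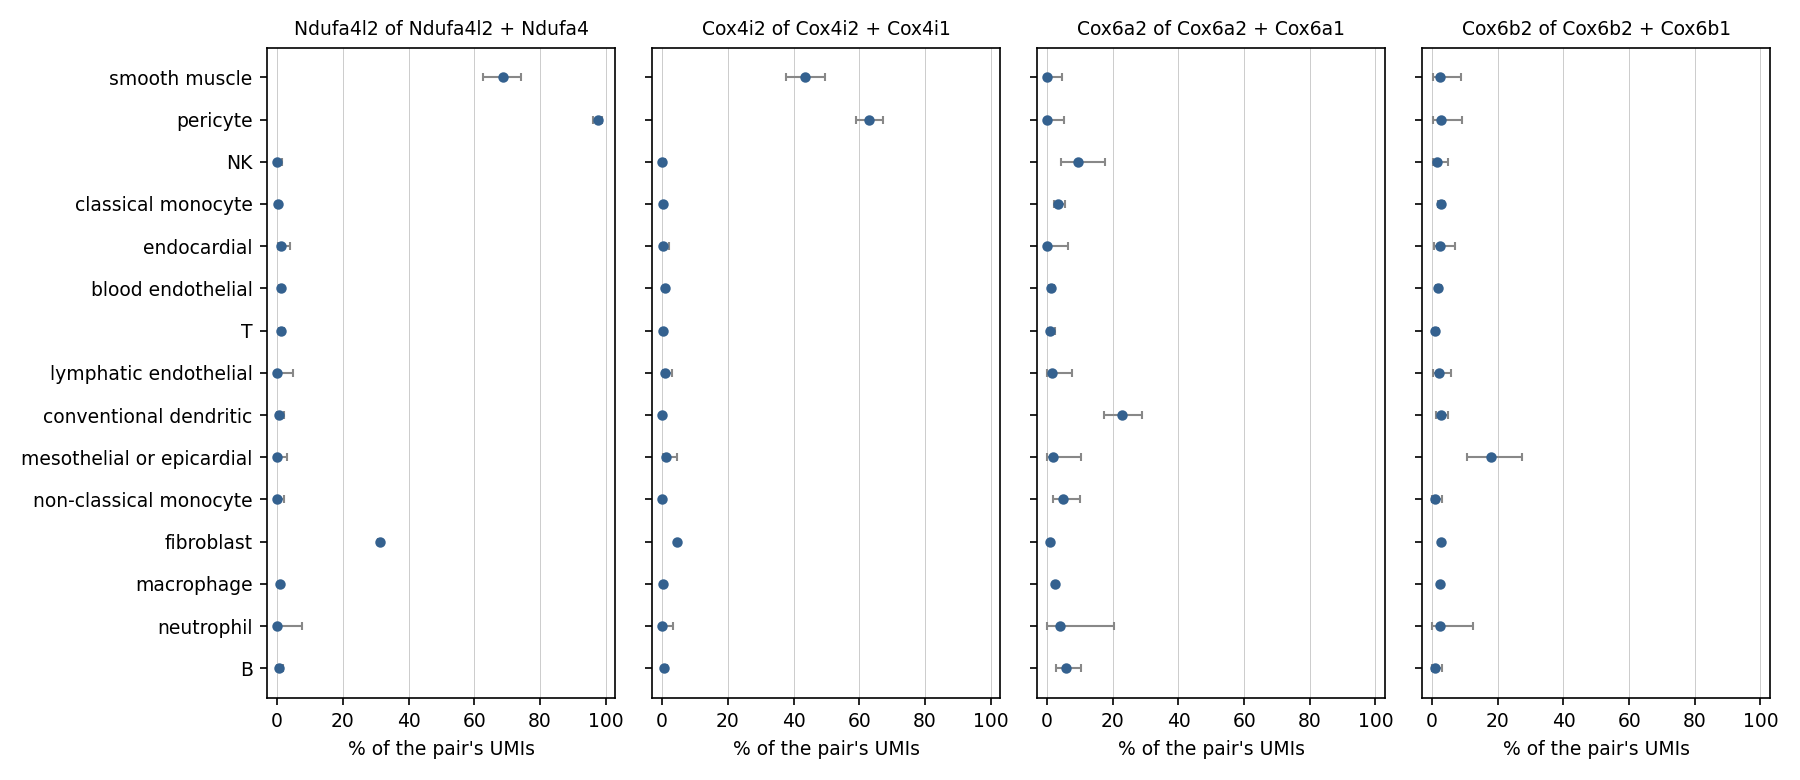
Share of a paralog pair's UMIs (x axis, %) held by Ndufa4l2, Cox4i2, Cox6a2 and Cox6b2 in each lineage (y axis); points are shares and lines are exact 95% binomial intervals. Pericytes (97.8%), smooth muscle (68.7%) and fibroblasts (31.2%) stand out for Ndufa4l2, and the dendritic class (22.8%) for Cox6a2.

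Within fibroblasts the Ndufa4l2 share followed the state. It was 39.7% (38.8 to 40.6) in fibroblasts of no named state, 30.7% (29.4 to 32.1) in activated fibroblasts (at least 3 of the list headed by Cthrc1 and Postn), 22.4% (21.5 to 23.3) in Pi16 fibroblasts, 14.4% (12.7 to 16.2) in cycling fibroblasts and 12% (6.12 to 20.4) in 29 Wif1 fibroblasts. The Cox4i2 share had another order, with 20.6% (15.5 to 26.5) in Wif1 fibroblasts, 6.63% in activated, 6.09% in unnamed, 2.65% in cycling and 1.84% (1.61 to 2.09) in Pi16 fibroblasts. Across single fibroblasts, 1873 cells had no Ndufa4l2 UMI and 57 had 10 or more. Ndufa4 was at 494 CPM in the former and 448 CPM in the latter, so fibroblasts rich in Ndufa4l2 did not show the low Ndufa4 of pericytes. Cox4i2 was at 30.1 CPM in fibroblasts with no Ndufa4l2 UMI, 37.8 CPM with 1, 47.2 CPM with 2 to 4, 85.2 CPM with 5 to 9 and 153 CPM with 10 or more. The cells with more Ndufa4l2 were also deeper (median 6999 to 10225 UMIs). Mural cells missed by the gate would have the same pair of transcripts, and the part of depth or of such cells was not tested.

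The forms known from heart muscle were rare. Cox6a2 (chromosome 7, 128205435 to 128206387 on the minus strand) held 98.8% of its pair in the 3 cells of the cardiomyocyte gate, Cox8b 73.6% and Cox7a1 53.5%, against 1.69%, 0.333% and 1.97% over all gated cells. Of the lineages with at least 20 cells, the conventional dendritic class stood apart with 51 Cox6a2 UMIs, 22.8% (17.4 to 28.8) of the pair. These all came from 4 of 83 cells with 5 to 17 UMIs each, and those 4 cells had no UMI of any gene of the cardiomyocyte list. They also held 47 UMIs of Siglech and 22 of Ccr9, genes known as markers of plasmacytoid dendritic cells, against 8 and 6 in the other 79 cells of the class, and 1 of Itgax against 69; these genes were chosen after the values had been seen. Itgad, a gene that shares part of the Cox6a2 end sequence, had 0 UMIs in the class. Cox6b2, the form of subunit 6b known from testis, held 18% (10.6 to 27.5) of its pair in mesothelial or epicardial cells from 16 UMIs, of which 10 came from 1 cell. Of the ATP synthase subunit c genes, Atp5g1 held 24.8% (16.7 to 34.3) of the UMIs of Atp5g1 and Atp5g3 in smooth muscle and 32% (23.9 to 40.9) in pericytes, against 44.9% over all gated cells and 71.7% in the 3 cardiomyocyte cells.

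Macrophages against fibroblasts, the comparison with most UMIs, showed a nuclear sum 0.944 times that of fibroblasts (0.94 to 0.949), a direction that turned to 1.15 with the median gene set to 1 and to 1.17 over genes with at least 1000 UMIs, because the median gene itself was lower in macrophages by 0.29 and 0.31 on the log2 scale. Of 87 subunits 2 were called higher and 8 lower, against 20.5% and 38.8% of all genes, so the subunits were called less often than the background in both directions. Complex I was at 0.83 times the fibroblast level (7 of 41 subunits above 1), complex V at 0.95, complex III at 1.0, complex IV at 1.08 and complex II at 1.1. Subunits called lower were Ndufa4l2 (3.52 CPM against 210.2 CPM), Cox4i2 (1.63 CPM against 44.6 CPM), Cox8b (0.351 times, from 14 UMIs), and the complex I subunits Ndufa5 (0.575), Ndufs5 (0.578), Ndufb2 (0.6), Ndufv1 (0.619) and Ndufa11 (0.632). Cox5a, a subunit of complex IV whose end sequence is largely shared with another annotated transcript, was called higher (436 CPM against 238 CPM, 1.83 times), as was Cox6a2, at 6.59 CPM (73 UMIs) against 1.93 CPM. Some cardiomyocyte list genes were also higher in macrophages, such as Myl3 (5.87 CPM against 1.98 CPM) and Actc1 (6.68 CPM against 3.07 CPM), while the muscle form Cox8b was lower. The part of cardiomyocyte RNA in the Cox6a2 ratio was not tested. The mitochondrially encoded subunits were 1.71 times higher in macrophages (1.7 to 1.72), with 6 of 12 genes called higher and mt-Cytb at 1.63, mt-Nd1 at 1.78 and mt-Nd4 at 1.91.

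Within the myeloid cells the readouts went in opposite directions. In classical monocytes, blood cells that can enter tissue and become macrophages, the nuclear sum was 1.29 times that of macrophages (1.28 to 1.3) and the mitochondrial sum 0.368 times (0.358 to 0.378). Of 82 nuclear subunits 13 were called higher and 1 lower (background 12.6% and 19.6%), and of 12 mitochondrial genes 9 were called lower, with mt-Cytb at 0.333, mt-Nd1 at 0.384 and mt-Nd4 at 0.347. Those with the largest ratios were Cox4i2 (3.05 times, from 9 UMIs), Ndufb1 (592 CPM against 277 CPM, 2.14 times), Uqcrfs1, the Rieske iron-sulfur protein of complex III (2.09 times), and the ATP synthase subunits Atp5l (1.81) and Atp5c1 (1.7), while Cox7a1 was lower (0.26 times, from 4 UMIs). Glycolysis genes were called higher in monocytes for 10 of 15 (1.76 times), and the summed dissociation response was 0.71 times that of macrophages. Conventional dendritic cells had the same pattern, with 1.21 times the nuclear sum (1.19 to 1.23) and 0.42 times the mitochondrial sum (0.404 to 0.437) of macrophages. There 6 of 81 subunits were called higher (background 10.6%): Cox6a2 at 11.3 times, for the 4 cells given above, Ndufa6 at 1.92 times, and Atp5c1, Uqcrfs1, Atp5l and Ndufb1 at 1.56 to 1.61 times. Non-classical monocytes had 0.845 times the nuclear sum of classical ones (0.826 to 0.864), with 11 of 79 subunits called lower and none higher (background 11.3% and 11.7%), led by Ndufb4 (0.252, interval 0.0292 to 0.989, from 2 UMIs), Ndufs8 (0.532), Ndufs3 (0.551), Sdhd (0.557) and Ndufc2 (0.567). Their mitochondrial sum was 1.17 times higher.

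**Figure D4:**
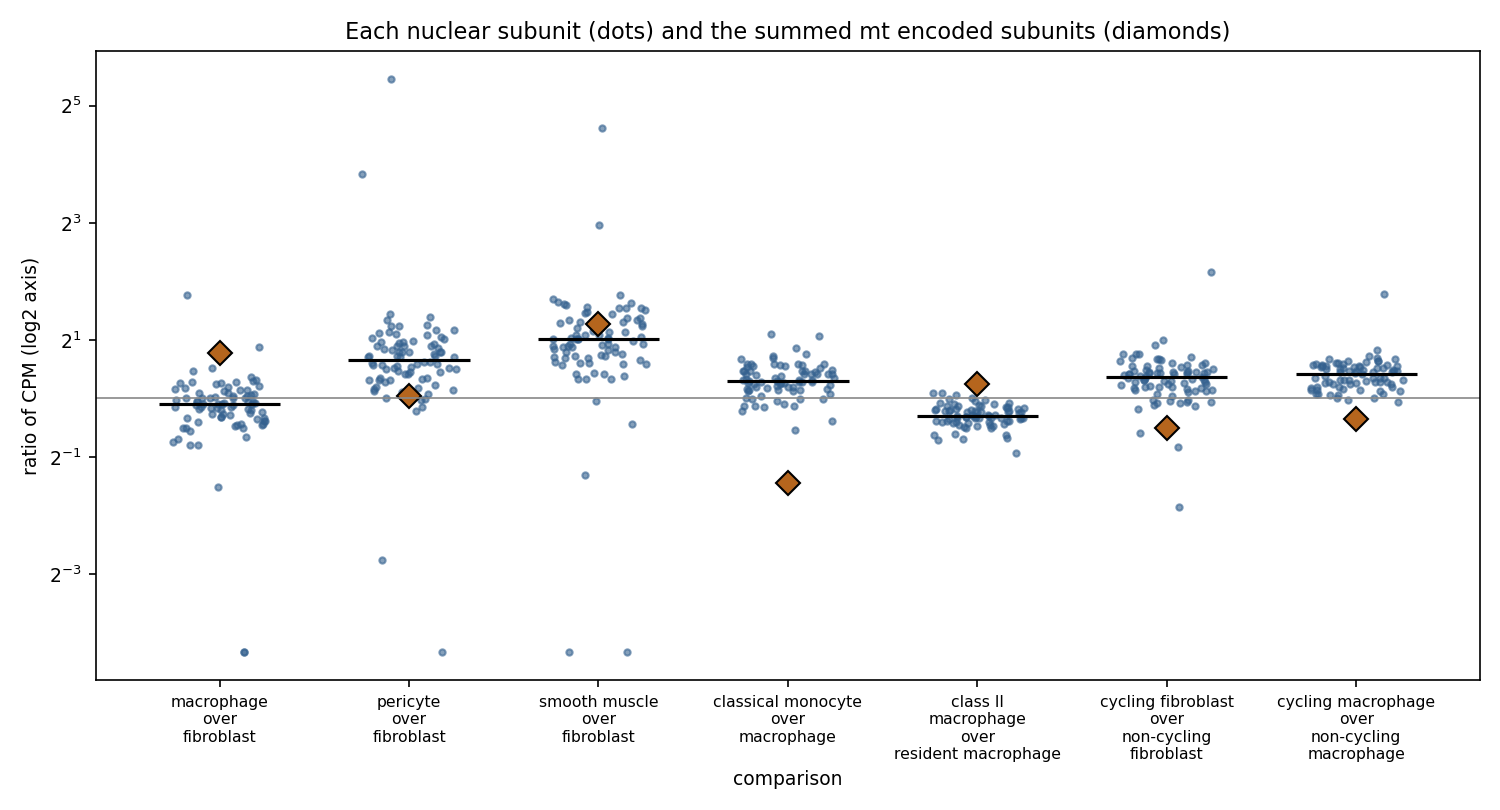
Ratio of CPM (log2 axis) for each nuclear subunit with at least 100 UMIs over both classes (dots, with their median as a line; ratios under 0.05 are drawn at 0.05) and for the summed mitochondrially encoded subunits (diamonds) in 7 comparisons. In the monocyte and both cycling comparisons most dots lie above 1 and the diamond below it (0.368, 0.705 and 0.785), and in class II macrophages the reverse holds (1.18).

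Endothelial classes differed more in the mitochondrial than in the nuclear readout. Blood endothelial cells had 1.19 times the nuclear sum of fibroblasts (1.18 to 1.2) and 1.62 times the mitochondrial sum (1.6 to 1.65), with 9 of 87 subunits called higher and 2 lower (background 19.9% and 14.9%). Ndufa8, a complex I subunit, led at 295 CPM against 121 CPM (2.44 times), followed by Ndufb7 (1.78), Ndufa4 (1.71), Atp5j (1.7) and Cox5a (1.64), and the 2 lower were Ndufa4l2 (0.0395) and Cox4i2 (0.186). Lymphatic endothelial cells had 0.975 times the nuclear sum of blood endothelial cells (0.948 to 1.0) and 0.532 times the mitochondrial sum (0.501 to 0.565). Their nuclear subunits were called higher for Ndufv1 alone (1.83) and lower for Ndufa4 (0.387) and Ndufa8 (0.464), 3 of 79 in all, against 8.5% and 9.99% of all genes. Endocardial cells had a nuclear ratio to blood endothelial cells of 1.0 (0.975 to 1.03) and a mitochondrial ratio of 0.734 (0.694 to 0.775), with Cox7a2l (1.66) and Ndufa7 (1.5) called higher and Ndufa9 (0.427), Uqcrc1 (0.553), Ndufa8 (0.601) and Cox5a (0.656) lower (background 6.69% and 8.21%).

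Among lymphocytes T cells had 1.42 times the nuclear sum of B cells (1.39 to 1.45) with a mitochondrial ratio of 1.01 (0.974 to 1.05). With cells weighted equally these ratios were 1.33 and 0.881. The part of immunoglobulin RNA in the total of the B class was not tested. Of 77 subunits 22 were called higher and none lower, but so were 22.8% of all genes (8.95% lower), so the share of subunits called was near the background. Ndufv3 (2.69), Ndufa10 (2.38), Atp5mpl (2.04), Cox7a2l (2.01), which is also known as a factor that joins complexes III and IV, and Atp5h (1.99) led. NK cells had 1.13 times the nuclear sum of T cells (1.1 to 1.15) and 0.791 times the mitochondrial sum, with Ndufab1 (1.63) and Ndufa8 (1.53) called higher and Cox7a2l lower (307 CPM against 542 CPM, 0.566 times; background 7.85% and 8.8%). CD8 T cells had 0.944 times the nuclear sum of other T cells (0.923 to 0.965), with 1 subunit, Ndufs5 (0.572), called lower and none higher (background 8.61% and 4.31%).

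Cycling cells, gated on at least 3 genes such as Mki67 and Top2a, had more nuclear subunit RNA in both large lineages, and less mitochondrially encoded subunit RNA, although after thinning the interval of the mitochondrial ratio in macrophages included 1. In 170 cycling fibroblasts the nuclear sum was 24442 CPM against 19220 CPM in the other 4707, a ratio of 1.27 (1.26 to 1.28), and the mitochondrial sum 3841 CPM against 5448 CPM, a ratio of 0.705 (0.689 to 0.722). Of 87 subunits 15 were called higher and 2 lower (background 11.2% and 8.94%), and 73 lay above 1. Cox6b2 led at 37.2 CPM (72 UMIs) against 8.36 CPM, 4.45 times, followed by Ndufa11b, a processed pseudogene in the annotation (4.3 times, 1.06 to 13.1, from 4 UMIs), Cox7a2 (1.99), Cox5a (1.89) and Uqcrq (1.69), while Ndufa4l2 (0.561) and Cox4i2 (0.661) were lower. In 89 cycling macrophages the nuclear sum was 23450 CPM against 17991 CPM in the other 1716, a ratio of 1.3 (1.28 to 1.32), and the mitochondrial sum had a ratio of 0.785 (0.764 to 0.806). Of 81 subunits 15 were called higher and none lower (background 11.7% and 3.69%), and 77 lay above 1. The share of all genes above 1 was not counted in either lineage. The median gene with at least 1000 UMIs was itself at a log2 ratio of 0.103 in cycling macrophages and 0.0626 in cycling fibroblasts. Cox6b2 led here too, at 36.8 CPM (30 UMIs) against 10.7 CPM (3.43 times), before Cox7a1 (2.2), Atp5o (1.78), Sdhd (1.65) and Ndufa9 (1.61). With the median gene set to 1, 4 of the macrophage subunits were called higher, and 8 where mixed cells were kept.

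Cycling cells were deeper and had a lower dissociation response. Their median depth was 11250 UMIs against 7495 in fibroblasts and 8474 against 5488 in macrophages, and the summed dissociation response was 17349 CPM against 26585 CPM and 15913 CPM against 28491 CPM. Among non-cycling cells the nuclear level also rose with depth, from 18410 CPM in the shallowest 25% of fibroblasts to 19944 CPM in the deepest 25% and from 16099 to 19622 CPM in macrophages, while the mitochondrial level went from 6935 to 4666 CPM and from 10670 to 8516 CPM. Among cells as deep as the deepest 25% of non-cycling cells the nuclear ratio was 1.22 in fibroblasts and 1.21 in macrophages, and the mitochondrial ratio 0.795 and 0.801. With all cells thinned to 2500 UMIs and gated again, the mitochondrial ratio was 0.659 (0.617 to 0.703) in fibroblasts and 0.961 (0.911 to 1.01) in macrophages, an interval that includes 1. With cells weighted equally it was 0.876 in macrophages. Mitochondrial ribosomal proteins were called higher for 13 of 77 in cycling fibroblasts and 20 of 77 in cycling macrophages (1 lower), and TCA cycle genes for 3 of 16 in each. Of all genes tested, 11.2% were called higher in cycling fibroblasts and 11.7% in cycling macrophages (3.69% lower).

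Single cells at equal depth kept the order of the mural classes. With every cell thinned to 2500 UMIs, the median nuclear subunit count was 118 UMIs in smooth muscle (5th to 95th percentile 58.5 to 158) and 81.5 in pericytes (51.5 to 114), against 47 in fibroblasts (31 to 69) and 43 in macrophages (24 to 71). The 5th percentile of pericytes lay above the median of fibroblasts. Neutrophils (median 35) stood below B cells (median 40.0), the reverse of their order in the summed level. Mitochondrially encoded UMIs spread more widely, with a median of 18 in macrophages (5 to 62.8) and 17 in blood endothelial cells (4 to 71.7), against 13 in fibroblasts (4 to 29) and 8 in classical monocytes (2 to 17.7). Cycling fibroblasts had a median of 63 nuclear UMIs against 47 in the others, and cycling macrophages 57 against 42.

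**Figure D5:**
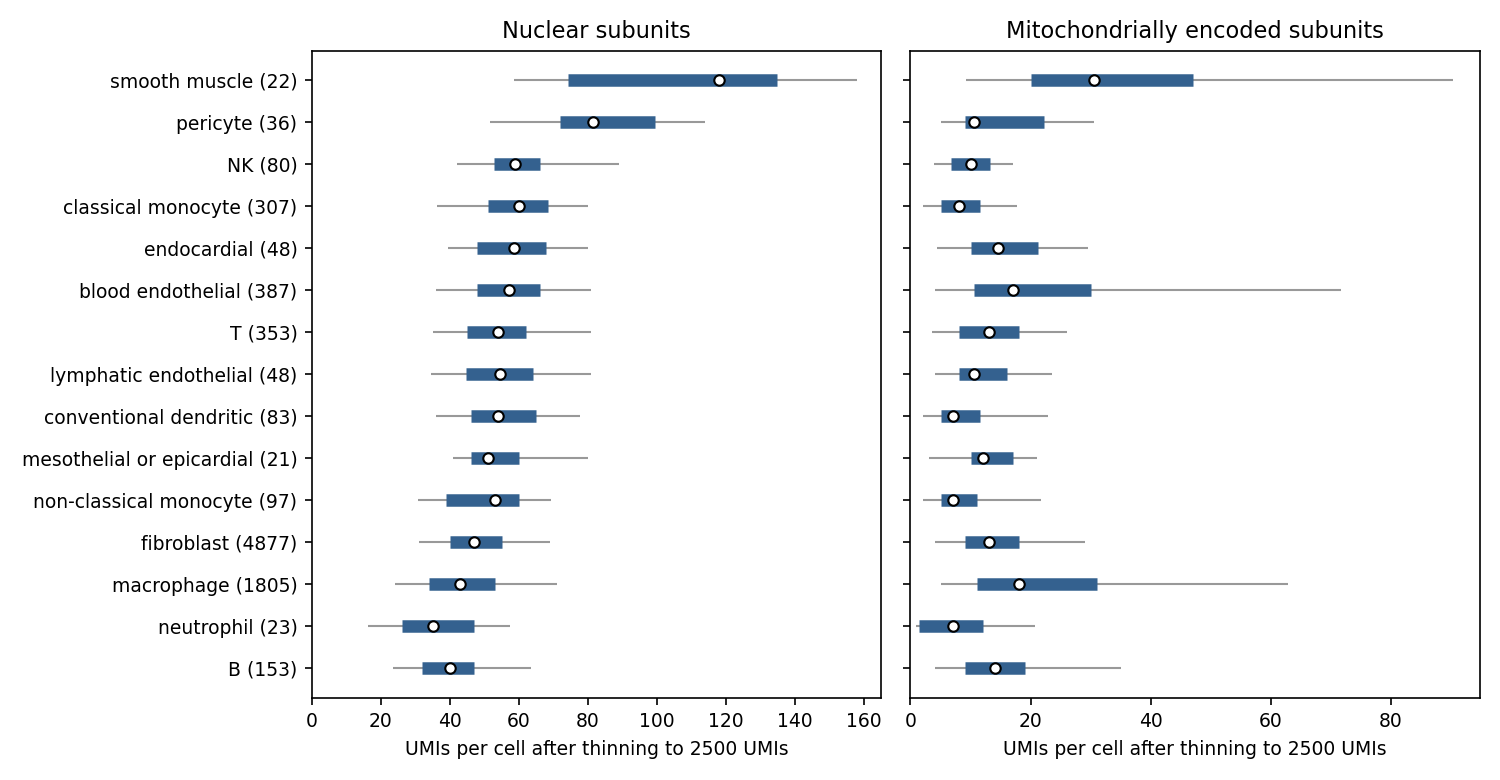
Nuclear (left) and mitochondrially encoded (right) subunit UMIs per cell after each cell was thinned to 2500 UMIs, by lineage; circles are medians, thick lines the 25th to 75th and thin lines the 5th to 95th percentile over cells, with the number of cells beside each name. Smooth muscle (median 118) and pericytes (81.5) stand above the other lineages on the left, and macrophages and blood endothelial cells have long upper ends on the right.

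Other states showed smaller differences, and they differed in depth. The median was 9634 UMIs in activated fibroblasts against 7197 in those compared, and 8907 in Pi16 fibroblasts against 6850. It was 6188 in wound-type and 5004 in class II macrophages against 5640 in resident ones. Thinned to 2500 UMIs and gated again, activated fibroblasts had a nuclear ratio of 1.14 and a mitochondrial ratio of 0.76, and class II macrophages 0.827 and 1.25. The part of depth in the ratios below was not tested. Activated fibroblasts, which hold genes of the scar-forming response, had 1.08 times the nuclear sum (1.08 to 1.09) and 0.803 times the mitochondrial sum (0.793 to 0.814) of other fibroblasts outside the cycling state. Cox6b2 (1.87) and Cox4i2 (1.59) were called higher and Cox7a1 (0.547) lower, 3 of 86 in all, beside 5.12% and 5.16% of all genes. Pi16 fibroblasts, known as an adventitial progenitor-like population, had a nuclear ratio of 1.03 and a mitochondrial ratio of 0.867 (0.859 to 0.875), with Cox4i2 (0.281), Ndufa4l2 (0.533) and Cox8b (0.58) called lower (background 7.24%; 3.37% higher, with no subunit). Wound-type macrophages (Arg1, Spp1 and others) had 1.04 times the nuclear sum of resident macrophages (1.03 to 1.05) and 0.991 times the mitochondrial sum (0.974 to 1.01). After thinning the nuclear ratio was 1.01 (0.985 to 1.04), an interval that includes 1, and the mitochondrial ratio 1.1 (1.06 to 1.14), on the other side of 1. In this comparison Cox6a2 alone was called (0.387, from 7 UMIs; background 5.71% higher and 12.4% lower), while 8 of 14 glycolysis genes were called higher (1.5 times). Class II macrophages, gated on high MHC class II RNA among macrophages of neither the resident nor the wound-type state, had 0.844 times the nuclear sum of resident ones (0.835 to 0.854) with 4 of 81 subunits above 1, and 1.18 times the mitochondrial sum (1.16 to 1.2). There 8 subunits were called lower and none higher (background 13.1% and 5.19%), led by Cox7a1 (0.442), Ndufb4 (0.523), Sdhc (0.612), Ndufc1 (0.618) and Ndufa4 (297 CPM against 473 CPM, 0.629). The median gene with at least 1000 UMIs was itself at a log2 ratio of -0.169. With the median gene set to 1 the nuclear ratio was 0.955, and 0.953 over genes with at least 1000 UMIs. The mitochondrial ratio was 1.33 under both scalings.

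The subunits were also split by the NRF-1 letters shown above, with values that only describe the split. The median ratio of members with and without the letters was 1.67 and 1.5 for pericytes over fibroblasts, 1.74 and 1.98 for smooth muscle over fibroblasts, 1.29 and 1.31 for cycling fibroblasts, 1.24 and 1.37 for cycling macrophages and 1.23 in each set for monocytes over macrophages. Of the genes whose promoters are printed, Ndufa11 was highest in smooth muscle (411 CPM) and lowest in B cells (133 CPM), and Sdhd highest in pericytes (155 CPM) and lowest in B cells (68.7 CPM). Cox6a1 was highest in smooth muscle (739 CPM) and lowest in neutrophils (212 CPM), and Atp5h highest in NK cells (607 CPM) and lowest in B cells (268 CPM).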

How the data were processed

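Per the labels, 1 pool of heart cells was run on the 10x 3′ version 3.1 kit; the submitters' processing notes name STARsolo, Scanpy and mm10, with no versions. The deposited matrix holds whole-number UMI counts per gene and cell, not normalized by the authors; the cell calling rule is not given in the sources used here, and the hashtag sample was not analysed here. Python 3.11.15 was used with numpy 2.4.6, scipy 1.17.1, pandas 2.3.3 and scanpy 1.11.5 (Scrublet), and matplotlib 3.10.9 drew the figures. Gates needed 3 markers of a lineage with at least 1 UMI each (2 for lists of abundant genes). A cell was mixed where a list of another family had at least 3 markers and 50% of its markers. States needed 3 markers (Pi16 4), and class II macrophages 300 UMIs of class II genes per 10000. Thresholds were chosen with the data in view, and members and lists were chosen with earlier results of these data known. UMIs were summed per class; intervals and calls are as given in the report. Named were all paralog pairs, the member of each complex with most UMIs and, per comparison, up to 5 called members with the largest ratio on each side. Cells were thinned with a fixed seed. Promoters came from RefSeq, transcripts for the 50-base comparison and gene positions from the GRCm38 annotation. The ratio rule was tested on simulated data. Alternatives were other gates, doublet treatment, depth, denominators, scalings and thresholds.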

Additional observations from a re-analysis of the deposited data

How the results depend on the processing

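No paired analysis was possible because the cells form 1 pooled library with no replicates, and no replicate could be left out. Of 65 alternatives for the planned results 31 moved the value by no more than its counting interval (for counts, 1.5 times), 32 moved it further and 2 turned the direction. The macrophage to fibroblast ratio of the nuclear sum (0.944) was 0.919 after thinning cells to 2500 UMIs, 0.949 with nuclear genes other than ribosomal proteins as the denominator, 0.927 with cells weighted equally and 0.932 without the 5 members with most UMIs, and it turned to 1.15 with the median gene set to 1 and to 1.17 over genes with at least 1000 UMIs (a scaling added after seeing the data). The mitochondrial ratio (1.71) was 1.68 with mixed cells kept, 1.67 thinned, 1.68 with equal weights and 2.09 and 2.12 under those scalings. Subunits called higher in macrophages (2) numbered 7 and 8 under the scalings and 1 at a 2-fold threshold, and those called lower (8) numbered 3 in each of the 3 settings. For cycling macrophages the nuclear ratio (1.3) was 1.28 with mixed cells kept, 1.28 thinned, 1.33 with equal weights, 1.2 and 1.21 under the scalings, 1.33 without the top 5 members and 1.21 in the deepest 25% of cells. For activated fibroblasts (1.08) it was 1.14 thinned and 1.06 and 1.05 under the scalings. For wound-type macrophages (1.04) it was 1.03 with 1 more marker, 1.01 thinned, 1.05 with the other denominator, 1.02 with equal weights, 1.14 and 1.11 under the scalings and 1.02 without the top 5 members.

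Of 182 alternatives for other sums, shares and counts 94 stayed within those limits, 88 moved and 0 turned the direction of a ratio whose interval excluded 1. The pericyte count of 44 became 17 at a 2-fold threshold, the cycling fibroblast count of 15 became 2, and the cycling macrophage count of 15 became 2. The smooth muscle nuclear ratio of 2.15 ran from 1.82 to 2.51 under the scalings. After thinning the T over B mitochondrial ratio of 1.01 was 0.823 and the wound-type mitochondrial ratio of 0.991 was 1.1, each on the other side of 1, and the cycling macrophage mitochondrial ratio went from 0.785 to 0.961. The cause of these moves was not tested. Limits: with 21 to 48 cells in 6 lineages, subunits with few UMIs cannot be called, and no value carries the spread between mice. Free RNA, unequal depth, the digestion response and the share of RNA from other genes differ between classes and were not removed.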
